A study of Mus musculus with 4 samples.

Results

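Glutamate receptors and the scaffolds that hold them in the postsynaptic membrane were followed in tissue of the mouse brain that takes in thalamus and hypothalamus. The set was a list of 36 genes for AMPA, NMDA, kainate, delta and metabotropic receptors, for the scaffold families Dlg, Shank and Homer, and for the alpha and beta subunits of the kinase CaMKII. A gene belonged to the set if a probe carried its symbol. Matching probe accessions to RefSeq symbols gave a probe for 35 of the 36, among 18350 symbols so matched, and 32 passed the detection filter. The comparison asked what dark rearing does to expression there at postnatal day 14. Dark-reared mice were born to dams that had been moved into a covered, lightless cage shortly before delivery, were tended under dim red light and remained there until sampling. Control mice lived in standard cages on a daily cycle of light and dark. Each group had 2 samples called biological replicates, each on its own one-colour Agilent array. The labels give neither strain, sex nor the number of animals behind a sample, and no genetic alteration is named.

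Glutamate opens AMPA receptors, tetramers built from Gria1 to Gria4 subunits that carry most fast excitatory current, and NMDA receptors, which need the Grin1 subunit and let in calcium. Kainate receptors shape release and excitability, and metabotropic receptors signal through G proteins. Postsynaptic density proteins of the Dlg, Shank and Homer families tie the receptors to each other and to CaMKII, a calcium-dependent kinase of synaptic plasticity. In the developing visual cortex, experience is known to govern the exchange of Grin2b for Grin2a in NMDA receptors and the balance of AMPA receptors.

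No gene of the set passed the test of dark-reared against control samples. With limma, 0 of the 32 tested members had a Benjamini-Hochberg adjusted p under 0.05, where the share over all 21422 genes tested was 0.0%. These 21422 hold genes with a symbol and also accessions without one, each counted as a gene. An unadjusted p under 0.05 in limma was found in 0 members and in 268 genes (1.25%) over the whole array. The members' log2 differences, dark-reared minus control, ran from -0.40 to 0.40, with 17 above 0 and 15 below and a median of 0.02 against -0.01 over all genes tested. In 2 members the groups did not overlap, 1 higher (Grid1) and 1 lower (Grm4) in the dark-reared samples; over all genes tested the share without overlap was 19.0%, made up of 9.53% higher and 9.51% lower. The count of 2 in 32 members is below that background. A difference of at least 1.5-fold without overlap was found in 0 members and in 2.75% of all genes tested. The 95% intervals of limma held 0 for all 32 members, and for 14 of them the interval lay within 2-fold in either direction. For the other 18 the interval reached past 2-fold in at least 1 direction, so that a difference of that size was not excluded.

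**Figure D1:**
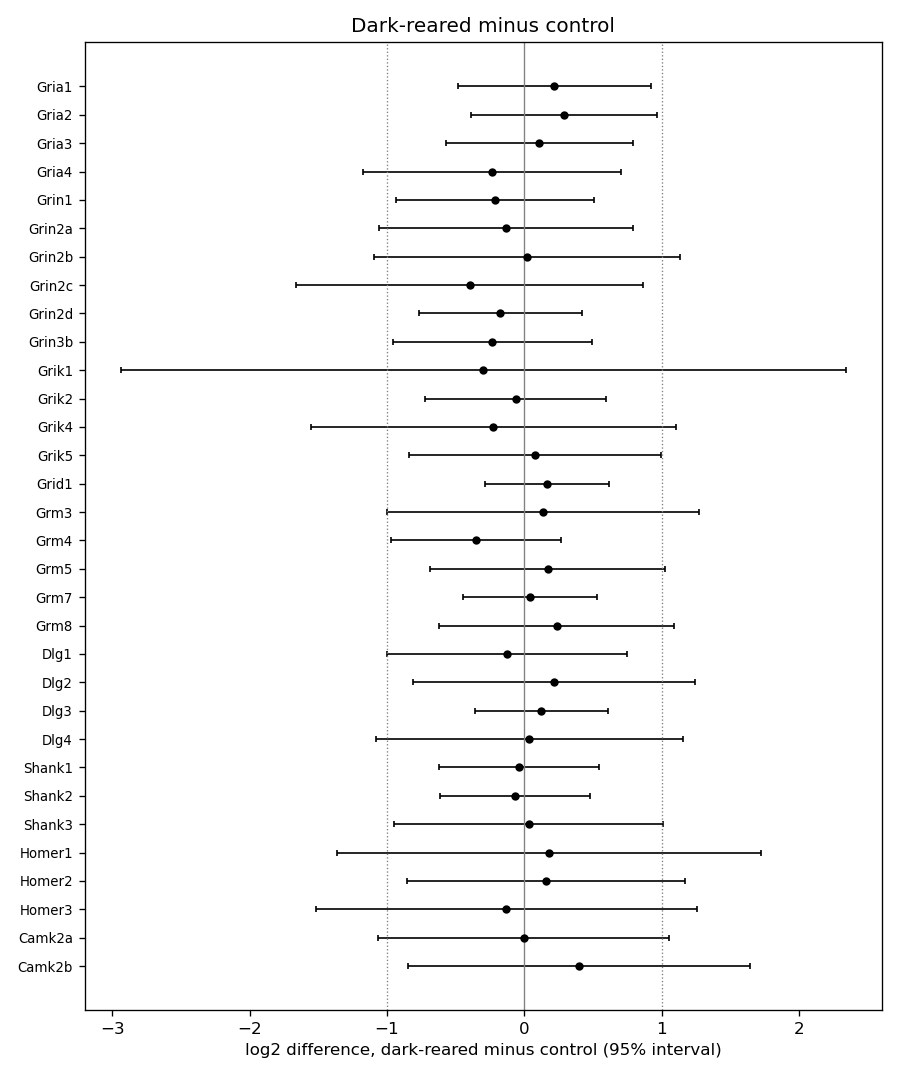
Log2 difference between dark-reared and control samples (points) with its 95% interval from limma (bars) for the 32 tested genes, dotted lines marking 2-fold. Every interval crosses 0, and the widest belongs to Grik1, from -2.94 to 2.34.

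Signals of the members varied between the arrays of a group. The range over the 4 arrays had a median of 0.74 on the log2 scale over the members, against 0.42 over all genes tested. Dark-reared 1 held the highest value of 14 members (43.8%, against 26.3% of all genes tested) and control 2 that of 8 (25%, against 21.6%). Control 1 held the lowest value of 13 members (40.6%, against 26.1%) and dark-reared 2 that of 11 (34.4%, against 28.6%). The shares of control 2 and dark-reared 2 were thus near those over all genes tested. For 28 of the 32 members (87.5%) the difference of dark-reared 1 from control 1 had the opposite sign to that of dark-reared 2 from control 2, as for 65.5% of all genes tested. The members' median was 0.30 for the first of these pairs and -0.33 for the second, whose arrays shared a slide. Dark-reared 1 and control 1 each lay on a slide of their own, so that for them slide and sample cannot be told apart. These pairs share a replicate number in the labels and nothing else that is stated.

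**Figure D2:**
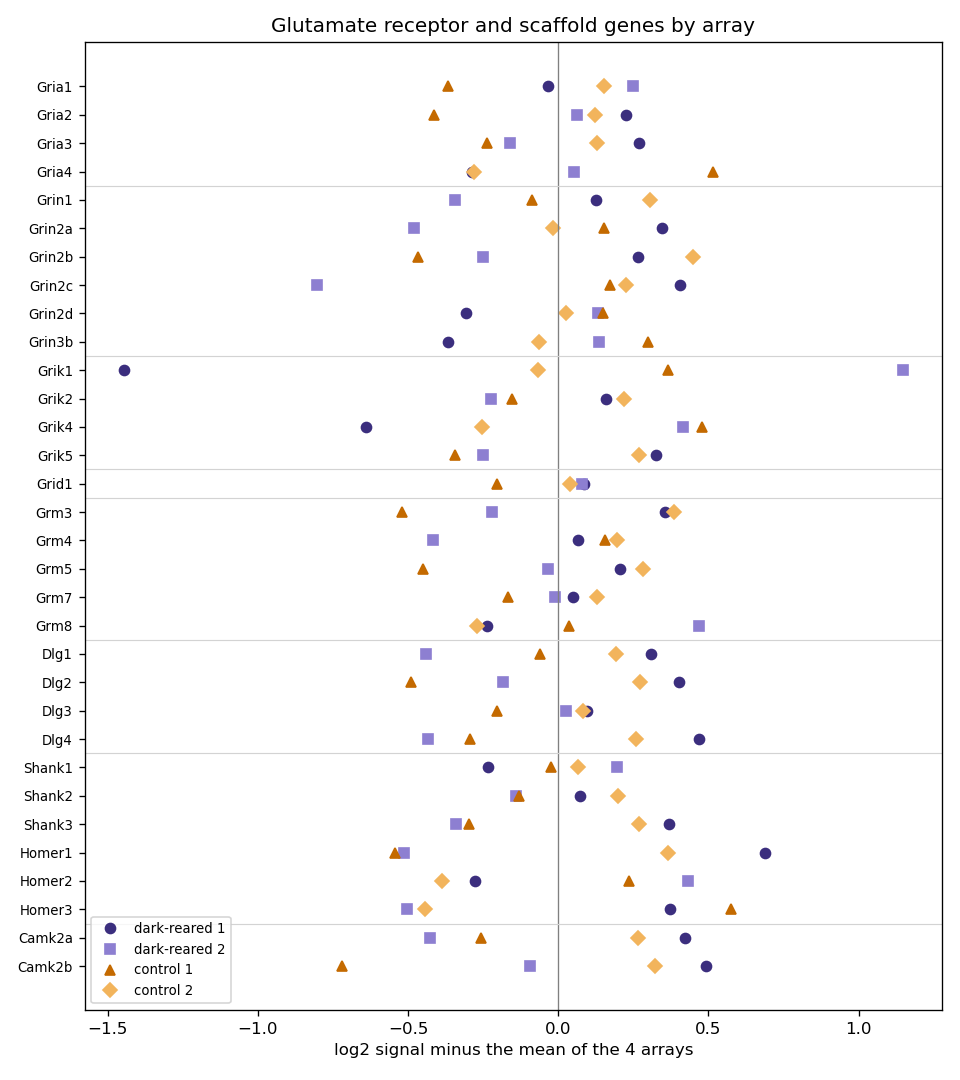
Log2 signal of each tested gene minus its mean over the 4 arrays, 1 symbol per array, with lines between receptor and scaffold families. Dark-reared 1 and control 2 lie right of 0 for most scaffold and CaMKII genes, whereas Gria4, Grik1 and Grik4 are lowest in dark-reared 1.

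**Figure D3:**
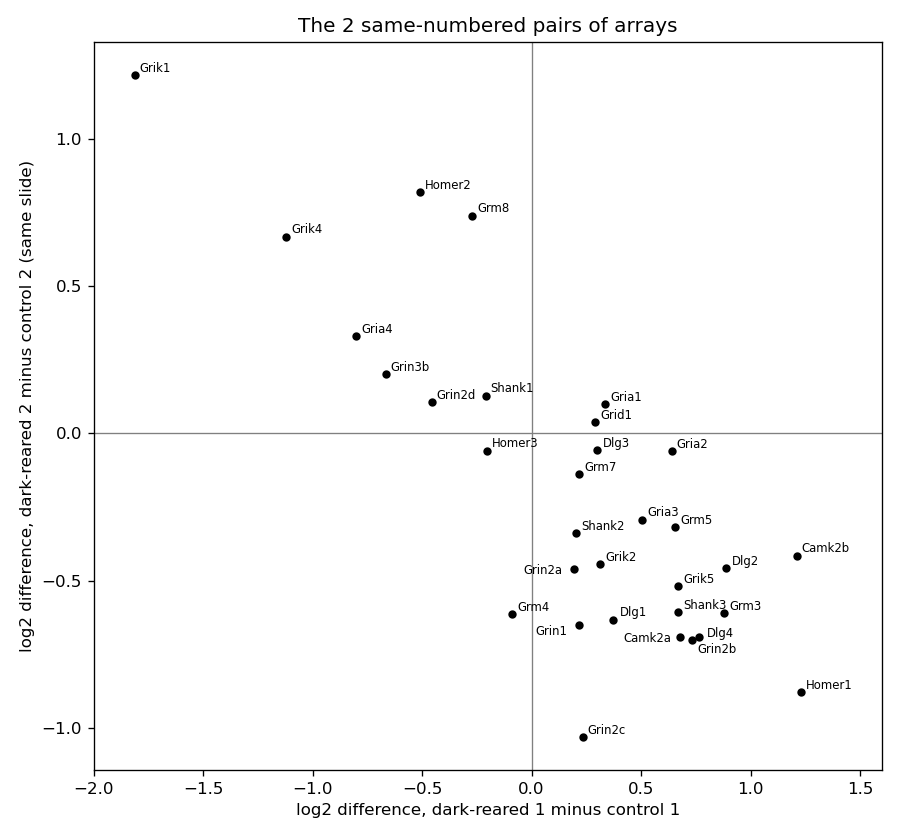
Log2 difference within the 2 same-numbered pairs of arrays, dark-reared 1 minus control 1 on the x axis and dark-reared 2 minus control 2 on the y axis, 1 point per gene. Of the 32 genes 28 lie in the upper left or lower right field, where the pairs disagree in sign.

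Promoter windows are shown for the members with the largest ranges over the arrays that have an entry in the RefSeq promoter table (GRCm38.p6), Homer1, Grin2c and Camk2b; Grik1 is named only. Windows run from 250 bases before to 50 after an annotated start, and 24 members had one or more, 37 in all. Capitals mark GC boxes (GGGCGG) and cores of the cyclic AMP response element (TGACG), searched on both strands.
Homer1 promoter (chr13:93303507-93303806, plus strand): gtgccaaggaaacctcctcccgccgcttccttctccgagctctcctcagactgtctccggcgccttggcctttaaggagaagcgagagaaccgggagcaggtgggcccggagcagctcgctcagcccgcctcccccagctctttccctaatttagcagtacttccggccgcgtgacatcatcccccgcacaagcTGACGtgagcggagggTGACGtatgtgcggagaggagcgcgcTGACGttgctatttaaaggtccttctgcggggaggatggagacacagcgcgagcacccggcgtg
Grin2c promoter (chr11:115267194-115267493, minus strand): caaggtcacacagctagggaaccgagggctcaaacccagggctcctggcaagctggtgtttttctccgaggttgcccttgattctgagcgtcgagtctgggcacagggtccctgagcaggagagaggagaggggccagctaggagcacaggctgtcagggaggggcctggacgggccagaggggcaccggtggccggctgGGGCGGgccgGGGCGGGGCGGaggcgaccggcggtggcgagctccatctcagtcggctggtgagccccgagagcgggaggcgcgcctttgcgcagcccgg
Camk2b promoter (chr11:6065699-6065998, minus strand): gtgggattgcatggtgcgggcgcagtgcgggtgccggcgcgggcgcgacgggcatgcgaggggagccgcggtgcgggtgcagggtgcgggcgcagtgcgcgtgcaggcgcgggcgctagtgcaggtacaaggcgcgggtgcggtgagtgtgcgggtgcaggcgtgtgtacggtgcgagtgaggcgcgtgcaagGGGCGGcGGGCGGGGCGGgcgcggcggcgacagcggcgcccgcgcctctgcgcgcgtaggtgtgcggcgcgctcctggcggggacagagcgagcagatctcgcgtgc
The Homer1 window held 3 such cores and no GC box, and the Grin2c and Camk2b windows 3 GC boxes each, of which a pair shares letters in each window, and no core. GC boxes were in 48.6% of the members' windows and 35.7% of all 32851 windows of this length, cores in 16.2% and 20.8%. The whole element TGACGTCA, which contains the core, was in 0 of the members' windows and in 1.79% of all windows. These matches describe letters and were not set against the differences between groups.

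Among the AMPA receptor subunits, 3 of 4 were higher in the dark-reared samples and none passed. Gria2 (NM_013540), the subunit that keeps AMPA receptors impermeable to calcium, had log2 signals of 5.0 and 4.84 in the dark-reared samples, against 4.36 and 4.90 in controls. Only control 1 stood apart, below the other samples. The log2 difference was 0.29 (limma standard error 0.24, adjusted p = 1.00). With quantile normalization, the deposited values or the normexp background the groups of Gria2 did not overlap, at differences that over all 8 other scalings and filters ran from 0.28 to 0.36. Gria1 (NM_008165), a subunit of receptors inserted during potentiation, had 4.03 and 4.31 in the dark-reared samples and 3.69 and 4.21 in controls, again with control 1 lowest. Gria3 (NM_016886) differed by 0.11 (95% interval -0.57 to 0.79), with overlapping groups. Gria4 (NM_019691), the subunit for fast currents that is abundant in thalamus, ran the other way, with 1.62 and 1.96 in the dark-reared samples and 2.42 and 1.63 in controls. Control 1 was highest there, all 3 detected probes of the gene were lower in the dark-reared samples, and the log2 difference of -0.24 turned to 0.33 within the shared slide and to 0.16 without control 1.

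Of the 6 tested NMDA receptor subunits, 5 were lower in the dark-reared samples and 1, Grin2b, was higher by 0.02, a sign that turned when its probes were averaged. Grin1 (NM_008169), present in every NMDA receptor, had log2 signals of 0.14 and -0.33 in the dark-reared samples, against -0.08 and 0.32 in controls. Grin2a (NM_008170), the subunit that gains weight as synapses mature, had -1.73 and -2.55 in the dark-reared samples and -1.92 and -2.09 in controls. The control values of Grin2a lay between the dark-reared ones, and its difference of -0.13 had a 95% interval from -1.06 to 0.79. Grin2b (NM_008171), dominant in young synapses, had 2.95 and 2.44 in the dark-reared samples and 2.22 and 3.14 in controls. Its 5 detected probes gave differences from -0.20 to 0.09, each with control 2 or dark-reared 1 highest. Grin2c (NM_010350), a subunit that gives weak magnesium block, had 2.60 and 1.39 in the dark-reared samples and 2.37 and 2.42 in controls. Here dark-reared 2 was the sample apart, and the log2 difference of -0.40 (standard error 0.45) was 0.21 without it. Grin2d and Grin3b, subunits of receptors with weak magnesium block or low calcium entry, were lowest in dark-reared 1 at -2.23 and -2.51, with differences of -0.18 and -0.23. Grin3a is listed without a value, since no probe accession matched its symbol. Whether the array holds a Grin3a probe under another identifier was not checked.

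The exchange of NMDA receptor subunits was also read as a ratio within each array. Probes differ in brightness, so the size of such a ratio has no meaning and only its change between samples was compared. The log2 ratio of Grin2a to Grin2b was -4.68 and -4.99 in the dark-reared samples and -4.14 and -5.23 in controls. Both dark-reared ratios lay between the control ones, and the group means of -4.84 ± 0.22 for dark-reared mice and -4.68 ± 0.77 for control mice (SD, n = 2 each) differed by -0.15 (exact two-sided permutation p = 1.00). For Gria2 to Gria1 the means were 0.75 ± 0.32 for dark-reared mice and 0.67 ± 0.01 for control mice (SD, n = 2 each), also overlapping (exact permutation p = 1.00). Of 6 such ratios, those of Camk2a to Camk2b alone did not overlap, at -0.14 and -0.41 in the dark-reared samples and 0.39 and -0.13 in controls. Its exact permutation p was 0.333, the smallest that 2 against 2 samples can give, and all 6 were 1.00 after Benjamini-Hochberg adjustment.

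The kainate receptor gene Grik1 had the widest range over the arrays of the 32 tested members. Grik1 (NM_146072), which encodes the GluK1 subunit, had log2 signals of -2.24 and 0.35 in the dark-reared samples, against -0.43 and -0.86 in controls. The dark-reared samples were thus the lowest and the highest of the 4, a range of 2.60, and another probe (NM_010348) repeated it with -3.57 and -1.28 in the dark-reared samples and -1.88 and -2.67 in controls. The group difference of Grik1 was -0.30 with a standard error of 0.95, and leaving out single arrays moved it between -1.60 and 1.00. Grik4 (NM_175481), a high-affinity subunit that needs a partner such as Grik1 or Grik2, had 1.12 and 2.17 in the dark-reared samples and 2.24 and 1.51 in controls, lowest again in dark-reared 1. Grik2 and Grik5, which form common heteromers, differed by -0.06 and 0.08, the sign of Grik2 turning with the normexp background or when probes were averaged. Grik3 was not tested: its brighter probe was well above background in dark-reared 1 and control 1 alone, at -4.40 and -4.37. Grid1, a delta receptor that acts as a synaptic adhesion protein through Cbln partners, had -2.38 and -2.39 in the dark-reared samples against -2.67 and -2.43 in controls. The groups did not overlap, but the nearest values were 0.04 apart, and under the normexp background they overlapped.

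Metabotropic receptors gave 4 higher and 1 lower of 5 tested, none of them passing, with the sign of Grm7 turning when probes were averaged. Grm4 (NM_001013385), a presynaptic receptor that dampens release, had log2 signals of -2.46 and -2.94 in the dark-reared samples, against -2.37 and -2.33 in controls. Both dark-reared values were below both controls. Its log2 difference was -0.35 (standard error 0.22, 95% interval -0.97 to 0.27, limma adjusted p = 1.00). With single arrays left out the difference ran from -0.59 to -0.11, its sign being fixed in advance by groups that did not overlap. Grm5 (NM_001143834), which couples to calcium release and binds Homer, had 4.16 and 3.92 in the dark-reared samples and 3.51 and 4.24 in controls, and all 4 detected probes were higher in the dark-reared samples by 0.02 to 0.23. Control 1 alone was low for Grm5. Grm3, a receptor of neurons and astrocytes, had 1.07 and 0.49 in the dark-reared samples and 0.19 and 1.10 in controls, with dark-reared 2 and control 1 both low. Grm8, a presynaptic receptor, was also higher in the dark-reared samples, by 0.23, but with another order of the arrays. It had -0.85 and -0.15 in the dark-reared samples and -0.58 and -0.89 in controls. Grm2 and Grm6, an autoreceptor and the receptor of retinal ON bipolar cells, did not rise well above background anywhere and were not tested.

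None of the scaffold genes passed, and several of them shared an order of the arrays. All 4 Dlg genes, which encode membrane-associated guanylate kinases that anchor receptors, had their highest signal in dark-reared 1. Dlg4 (NM_007864), the gene of PSD-95, had log2 signals of 0.03 and -0.87 in the dark-reared samples, against -0.74 and -0.18 in controls, a difference of 0.04 (95% interval -1.08 to 1.15). Dlg2 (NM_011807), which encodes PSD-93, had 3.0 and 2.42 in the dark-reared samples and 2.11 and 2.87 in controls. Shank3 (NM_021423), a master scaffold that links receptor complexes to actin, had 3.68 and 2.97 in the dark-reared samples and 3.01 and 3.58 in controls. Dlg4, Dlg2 and Shank3 each had dark-reared 1 highest and control 2 next. Shank1 and Shank2 were dim, Shank1 being well above background on 3 arrays, and differed by -0.04 and -0.07, with signs that turned under other scalings.

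Homer genes, whose proteins tether group I metabotropic receptors to Shank, differed from one another in the order of the arrays. Homer1 (NM_152134) had log2 signals of 1.74 and 0.53 in the dark-reared samples, against 0.50 and 1.41 in controls. Homer2 (NM_011983) had -0.02 and 0.69 in the dark-reared samples and 0.49 and -0.13 in controls. Dark-reared 1 and control 2 were the higher arrays for Homer1 and the lower ones for Homer2, and the differences between groups were 0.18 (standard error 0.55) and 0.15 (standard error 0.36). A pair of other Homer1 probes (NM_011982) kept that order of arrays in part, dark-reared 1 being highest and dark-reared 2 lowest on both. Homer3, at -2.06 and -2.94 in the dark-reared samples and -1.86 and -2.88 in controls, split each group in its own way, replicate 1 being higher in both. Of the 15 members with several detected probes, 10 had all probes of 1 sign and 5, Grin2b, Grik2, Grm7, Homer1 and Homer2, had both signs.

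CaMKII genes showed the same split. Camk2b (NM_007595) had log2 signals of 5.22 and 4.63 in the dark-reared samples, against 4.01 and 5.05 in controls, the largest positive difference of the set at 0.40 (standard error 0.45, limma adjusted p = 1.00). It was -0.41 within the shared slide. Camk2a (NM_177407), the main kinase subunit of forebrain excitatory neurons, had 5.07 and 4.23 in the dark-reared samples and 4.40 and 4.92 in controls. Its difference of -0.01 took the other sign in 4 of 8 other scalings and filters. A much dimmer Camk2a probe (NM_009792) had -4.86 and -3.68 in the dark-reared samples and -3.38 and -4.16 in controls, so that dark-reared 1 and control 2 were its lower arrays, whereas they were the higher ones on the bright probe. When both probes were averaged the groups did not overlap, at a difference of -0.25, a value that rests on that dim probe.

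Markers of brain regions also varied between arrays of a group, and the group differences of some lists lay mostly in 1 direction. In the dark-reared samples 0 thalamus markers were higher and 12 lower (median log2 difference -0.78). For hypothalamus these counts were 1 and 9 (-0.99), for oligodendrocytes 0 and 6 (-0.74) and for choroid plexus 4 and 0 (1.07). Striatum markers gave 6 higher and 3 lower (0.02), cortex and hippocampus markers 9 and 4 (0.19). No marker had an adjusted p under 0.05 in limma. In bulk tissue, fewer cells of a type and less RNA per cell cannot be told apart. All 9 striatum markers were detected, among them Penk and Pde10a, although the labels name thalamus and hypothalamus. Their mean deviation from the 4-array mean was 0.84 and -0.80 in the dark-reared samples and -0.66 and 0.62 in controls, and the sum of their linear signals, in units of each array's 75th percentile, 356 and 116 in the dark-reared samples and 135 and 322 in controls. Dark-reared 1 and control 2 were high for these markers, as they were for the Dlg and CaMKII genes and for microglia and endothelium markers. Microglia markers (6 of 6 tested) had mean deviations of 0.17 and -0.10 in the dark-reared samples and -0.35 and 0.28 in controls, and endothelium markers (5 of 5) had 0.09 and -0.13 in the dark-reared samples and -0.06 and 0.10 in controls. Thalamus markers (12 of 13 tested, Synpo2 not) had summed signals of 10.2 and 30.5 in the dark-reared samples and 56.3 and 15.5 in controls, with 7 of 12 lowest in dark-reared 1 and 10 highest in control 1. Hypothalamus markers (10 of 13 tested) had sums of 3.92 and 29.8 in the dark-reared samples and 51.7 and 15.8 in controls. Agrp was well above background in control 1 alone, and Sim1 and Otp in no sample. Gria4, Grik4, Grin2d and Grin3b, named after their values were seen, had the same extremes as these lists, lowest in dark-reared 1 and highest in control 1. Of the members 6 were lowest in dark-reared 1 (18.8%, against 28.0% of all genes tested) and 5 highest in control 1 (15.6%, against 23.5%). Both shares were below those over all genes tested. All 6 oligodendrocyte markers were lowest in dark-reared 2 (sums of 499 and 120.3 in the dark-reared samples and 530.3 and 310.2 in controls). Dark-reared 2 was also lowest for 11 members (34.4%, against 28.6% of all genes tested), among them Grin2c and Dlg4. The sums of 8 general neuron markers were 137 and 160.1 in the dark-reared samples and 187 and 139.5 in controls, and those of 13 cortex and hippocampus markers 45.7 and 34.4 in the dark-reared samples and 34.1 and 42.3 in controls. Choroid plexus markers (4 of 5 tested) were lowest in control 2, with sums of 15.0 and 9.22 in the dark-reared samples and 13.4 and 2.39 in controls. The part of these cell and region markers in the values of the receptor and scaffold genes was not tested.

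**Figure D4:**
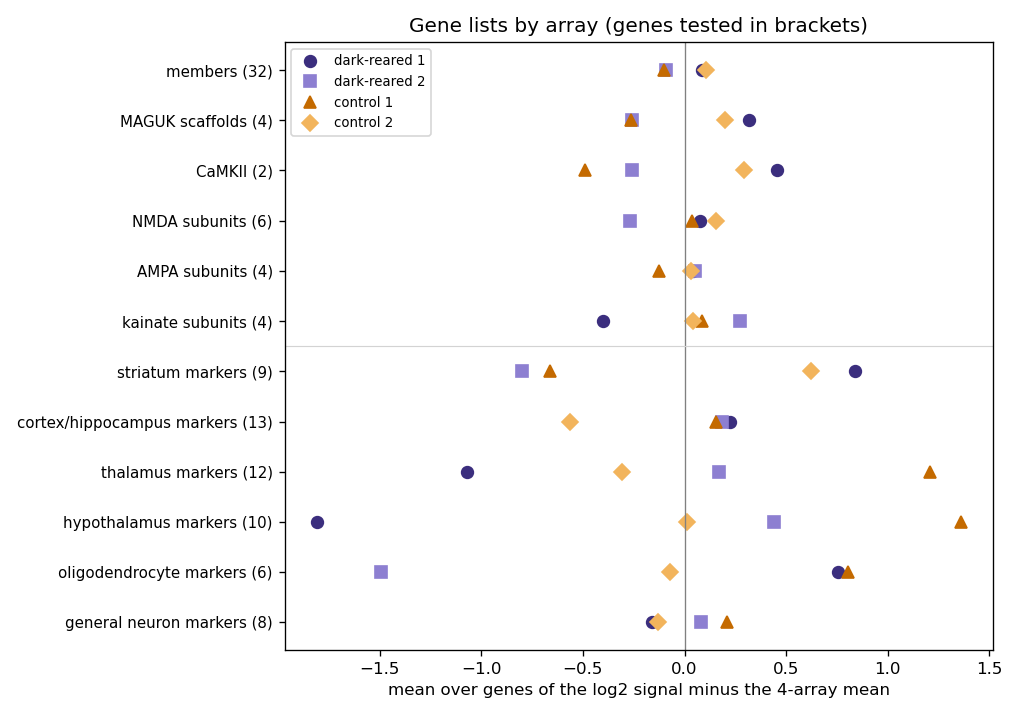
Mean over the genes of each list of the log2 signal minus the 4-array mean, 1 symbol per array, with receptor and scaffold families above the line and marker lists below it. Striatum markers, Dlg scaffolds and CaMKII genes are right of 0 in dark-reared 1 and control 2, and thalamus and hypothalamus markers are farthest right in control 1 and farthest left in dark-reared 1.

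Partners of the receptors gave no call in limma either, with 0 genes at an adjusted or unadjusted p under 0.05 in each of 4 further lists. Groups did not overlap in 2 of 13 auxiliary subunit genes (Cacng2, Shisa9), 4 of 22 postsynaptic genes (Cttn, Lin7c, Sharpin, Pick1), 1 of 14 uptake genes (Glul) and 1 of 20 signalling genes (Camkk1), against 19.0% of all genes tested. These genes are named after their values were seen. Of 13 tested auxiliary subunit genes, 8 were higher and 5 lower in the dark-reared samples (median log2 difference 0.06). Cacng3, a transmembrane regulator of AMPA receptors, had log2 signals of 1.03 and -0.03 in the dark-reared samples, against -0.53 and 0.88 in controls, the order seen for Camk2b. Cacng8 and Cnih2, which also accompany AMPA receptors, differed by 0.31 and 0.19. Among 22 genes of the postsynaptic density and of receptor trafficking 13 were higher and 9 lower (median 0.04). The largest difference was -1.18 for Grip2, an AMPA receptor binding scaffold that was dim. Grip2 passed the detection filter through the controls alone (-4.24 and -3.18). Its signal of -5.59 in dark-reared 1 lay under the lowest one well above background there, -5.17. Its difference therefore depends on the filter and is not read as a result. Next came 0.36 for Akap5, an anchor of kinases and phosphatases, and 0.35 for Dlgap2, the link between Dlg and Shank proteins. Glutamate uptake and supply gave 7 higher and 7 lower of 14 (median -0.0046), led by Slc1a6 at -0.47, Glul at 0.17 and Slc1a1 at -0.15, Glul being the glutamine synthetase gene. In calcium and kinase signalling 6 were higher and 14 lower of 20 (median -0.06), led by Camk2n2, a CaMKII inhibitor, at -0.53 and Camkk1 at -0.29. Camk2n2 had 4.07 and 5.71 in the dark-reared samples and 5.76 and 5.08 in controls, low in dark-reared 1 alone.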

How the data were processed

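Total RNA of tissue holding thalamus and hypothalamus was hybridised to one-colour Agilent arrays, 1 per sample. The authors deposited the scanner's processed signal, a background-subtracted intensity; the software was Agilent Feature Extraction, in version 10.7.3.1 going by the file headers and 10.7 going by the submitters' processing notes. The array design refers to mm9, and no position is taken from it. Log2 values of each probe were deposited too, with a median of 6.84 on every array and a correlation across probes of 0.999 to 1.00 with log2 of the processed signal; how the authors normalized them is not stated in any label or header, and they served as an alternative.

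Of 45018 spots, 43379 were not controls, giving 41174 probes. Spots called outliers by the scanner software (79 to 103 per array) were left out, the spots of a probe averaged, and the 75th percentile of an array's non-control spots (772 to 802) subtracted on the log2 scale, so that a value of 0 is that percentile. No spot was saturated, and 65.9% to 73.3% of probes were well above background. Precision is limited by the number of arrays and by how far a signal exceeds its background. RefSeq accessions were matched without versions to the RefSeq symbols of GRCm38.p6, naming 26918 probes. A probe was used if both arrays of one group or the other had it well above background, and the brightest such probe stood for its gene. Probes without a symbol were grouped by accession, and each such accession counts among the genes tested. Dark-reared and control samples were set against each other in limma 3.58.1 (R 4.3.3) with lmFit and eBayes, two-sided. P-values were adjusted by the Benjamini-Hochberg method over the 21422 genes and measure the spread between these samples. The fit had first been tested on simulated data. The changes simulated there were larger than any difference of the members, so power at the members' sizes was not tested. The members and lists were chosen with earlier results of these data known. All 36 members are accounted for, and in each further list the 3 genes with the largest absolute difference are named, apart from 1 that is not reported here. The motif searches, the within-array ratios and the windows shown were chosen after the values were seen. Sensitivity to normalization, background, filter, outlier spots, probe choice, variance model, replicate number as a block, slide and single arrays is given at the end. Same-numbered samples did not deviate together (correlation of deviations from the group means -0.16 over all genes tested and -0.52 over the members).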

Additional observations from a re-analysis of the deposited data

How the results depend on the processing

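The count of genes past the adjusted threshold was 0 in limma under every setting run, with 154 to 1174 genes at an unadjusted p under 0.05; 3 members had such a p without dark-reared 1 and 1 without dark-reared 2, the lowest adjusted p of a member being 0.627. With the replicate number as a block the count was also 0, as it was with the numbers crossed, a setting added after seeing the data. The labels give nothing but the number to pair samples by, and the block changed no call. The members' median of 0.02 was -0.33 within the shared slide, and it lay between -0.12 and 0.19 with 1 array left out, below 0 without dark-reared 1 (-0.09) and without control 1 (-0.12), and at -0.01 without the filter on dim probes and -0.02 with averaged probes. Members without overlap numbered 2 or 3 under other scalings and filters, and 11 to 21 with 1 array left out (21 and 17 when dark-reared 2 or dark-reared 1 was dropped, 19 and 11 when control 2 or control 1 was), a setting added after seeing the data in which the share over all genes tested is 49.4% to 65.3% because 1 value stands for a group. Members at least 1.5-fold apart without overlap numbered 0 under every scaling and filter and 0 to 7 of 32 with 1 array left out. The count was 4 when either dark-reared sample was dropped, and 7 and 0 when control 2 or control 1 was. The share so apart over all genes tested was 10.3% without dark-reared 1 and 10.2% without dark-reared 2. It was 7.83% without control 2 and 8.05% without control 1. Over 8 other scalings and filters 26 of 32 members kept the sign of their difference. With single arrays left out 3 did, Gria2, Grid1 and Grm4. For Grid1 and Grm4 this follows from groups that did not overlap.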
